A study of Macaca mulatta with 16 samples.

Results

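Intraflagellar transport (IFT) and ciliopathy genes were followed in the developing retina of the rhesus monkey (Macaca mulatta). The genes were chosen by symbol from the deposited mRNA table: every IFT gene and every BBS gene with a number, every NPHP gene with a single digit, and 14 further symbols (TTC8, ARL6, ARL3, CEP290, RPGR, RPGRIP1, RPGRIP1L, LCA5, SPATA7, KIF3A, KIF17, DYNC2H1, UNC119 and PDE6D). Of the 28633 genes in the table, 37 gene IDs matched, and they stand for 36 symbols. DYNC2H1 had 2 IDs, of which the one with the higher summed level was kept. No row matched RPGR, and it was not analysed here. BBS1, IFT22, IFT25, IFT54 and IFT56 had no row under those symbols either, so some complexes below lack subunits. Symbols were thus matched by name alone, but the set was drawn up with earlier results of these data known.

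Retinal punches were taken from the temporal side, over the prospective fovea, and from the nasal side at the same distance from the optic nerve head. The 6 columns of the table were temporal and nasal retina at 50 days gestational age (the authors' mean of 3 samples per region), at 90 days (1 sample per region) and at 150 days (1 sample per region). All were unmanipulated embryonic or fetal retinas, and no strain, genotype or treatment differed between the groups. The labels do not tie temporal and nasal samples to an animal, so age and animal cannot be told apart. The punch kept its size while the eye grew, so it took a larger share of the retina at 50 days, when it reached beyond the future fovea. Reads were single-end at 50 days and paired-end later, which likewise cannot be told apart from age.

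A cilium is built and maintained by trains of IFT proteins that run along its microtubules. The IFT-B complex is needed mainly for travel towards the tip, driven by kinesin-2, and the IFT-A complex for the return, driven by dynein-2. The BBSome, a coat-like complex of Bardet-Biedl syndrome proteins, rides on these trains and carries membrane proteins out of the cilium. A gate at the base, the transition zone, controls what enters. In photoreceptors the outer segment is a modified cilium, and its transition zone is drawn out into the connecting cilium, through which all outer segment proteins pass. Mutations in many of these genes cause retinal degeneration alone or as part of a syndrome.

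The depth was 18778855 recovered reads in temporal and 19851990 in nasal retina at 90 days, and 17429349 in temporal and 18663804 in nasal retina at 150 days. The depth behind the 50-day means is unknown. Levels are in CPM, reads of a gene scaled to a common library size and not divided by gene length, so levels were compared between samples and never between genes. Retinal genes were present in each column: CRX, the photoreceptor transcription factor, ranged from 19.0 to 844 CPM. The 10 pigment epithelium markers summed to 71.4 CPM in temporal and 85.4 CPM in nasal retina at 50 days and to 20.9 and 17.6 CPM at 150 days. The 50-day columns stood apart from the later ones. The 10 housekeeping genes listed as a reference summed to 2312 CPM in temporal and 2600 CPM in nasal retina at 50 days, against 6341 to 7449 CPM in the 4 later libraries. Each comparison with 50 days is therefore given with this difference beside it.

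With 1 value per region and age there is no replicate check within an age, and differences between ages or regions at one age have no test. A gene was called changed where log2(CPM + 1) differed by at least 2-fold with at least 5 CPM on the higher side, and between ages only where both regions moved the same way. For 90 and 150 days, the ratio of reads is given with a 95% Clopper-Pearson interval, which covers counting error only. In bulk tissue, fewer cells of a type and less RNA per cell cannot be told apart. Of the 36 genes, 35 reached 5 CPM in each of the comparisons. The exception was KIF17.

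**Figure D1:**
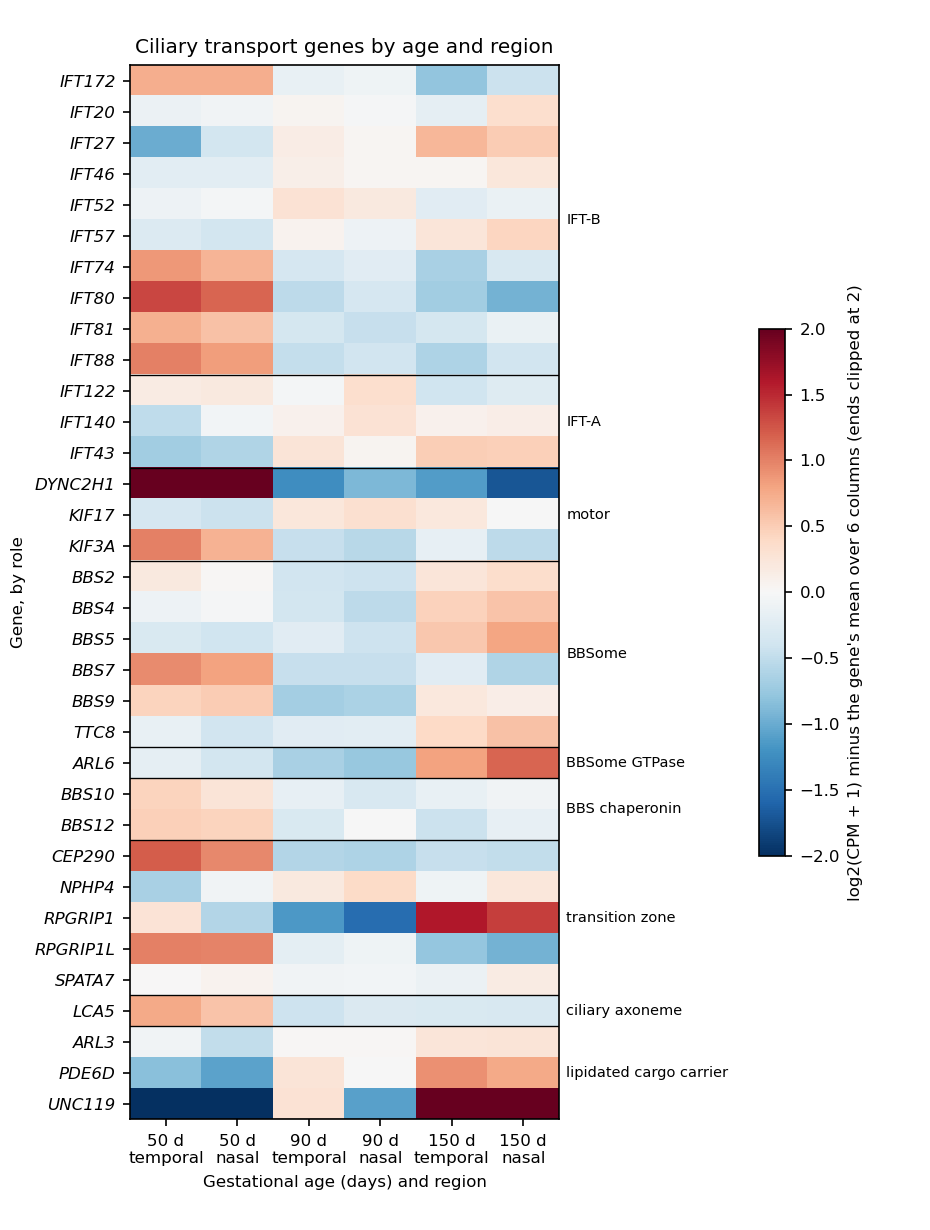
Level of 34 of the 36 genes in the 6 columns, as log2(CPM + 1) minus the mean of that gene, with genes grouped by role and temporal left of nasal at each age. UNC119 has its highest colour at 150 days in both regions, and CEP290, IFT80 and DYNC2H1 have theirs at 50 days.

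Few ciliary genes differed by 2-fold between temporal and nasal retina, and few genes did over the whole table. UNC119 was 2.61-fold higher in temporal than in nasal retina at 90 days, and no other gene passed 2-fold at any age. At 50 days 0 of 35 genes were 2-fold higher in temporal retina (0.197% of all genes were) and 0 were 2-fold lower (0.861%). At 90 days 1 of 35 was higher (0.792%) and 0 were lower (0.581%). At 150 days 0 were higher (1.61%) and 0 lower (0.920%). At 50, 90 and 150 days the median log2 temporal over nasal ratio of the group was 0.09, 0.00 and -0.11, against -0.02, 0.03 and -0.04 over all genes. Genes higher in temporal retina by any amount numbered 22 of 35 at 50 days (51.3% of all genes), 19 at 90 days (55.3%) and 13 at 150 days (43.7%). BBS7, PDE6D, KIF3A, CEP290 and RPGRIP1 were higher in temporal retina at all ages, 5 genes (11.9% of all genes), and IFT122, IFT140, IFT172, NPHP4 and SPATA7 were lower at all, also 5 (12.7%). At 1.5-fold, RPGRIP1 was the 1 gene higher in temporal retina at 50 days (0.762%), and IFT27 and NPHP4 were the 2 lower (6.37%). UNC119 was the 1 higher at 90 days (2.42%), with 0 lower (2.33%), and DYNC2H1 the 1 higher at 150 days (6.23%). Summed over its gene IDs, DYNC2H1 did not reach 1.5-fold at 150 days (log2 0.41).

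**Figure D2:**
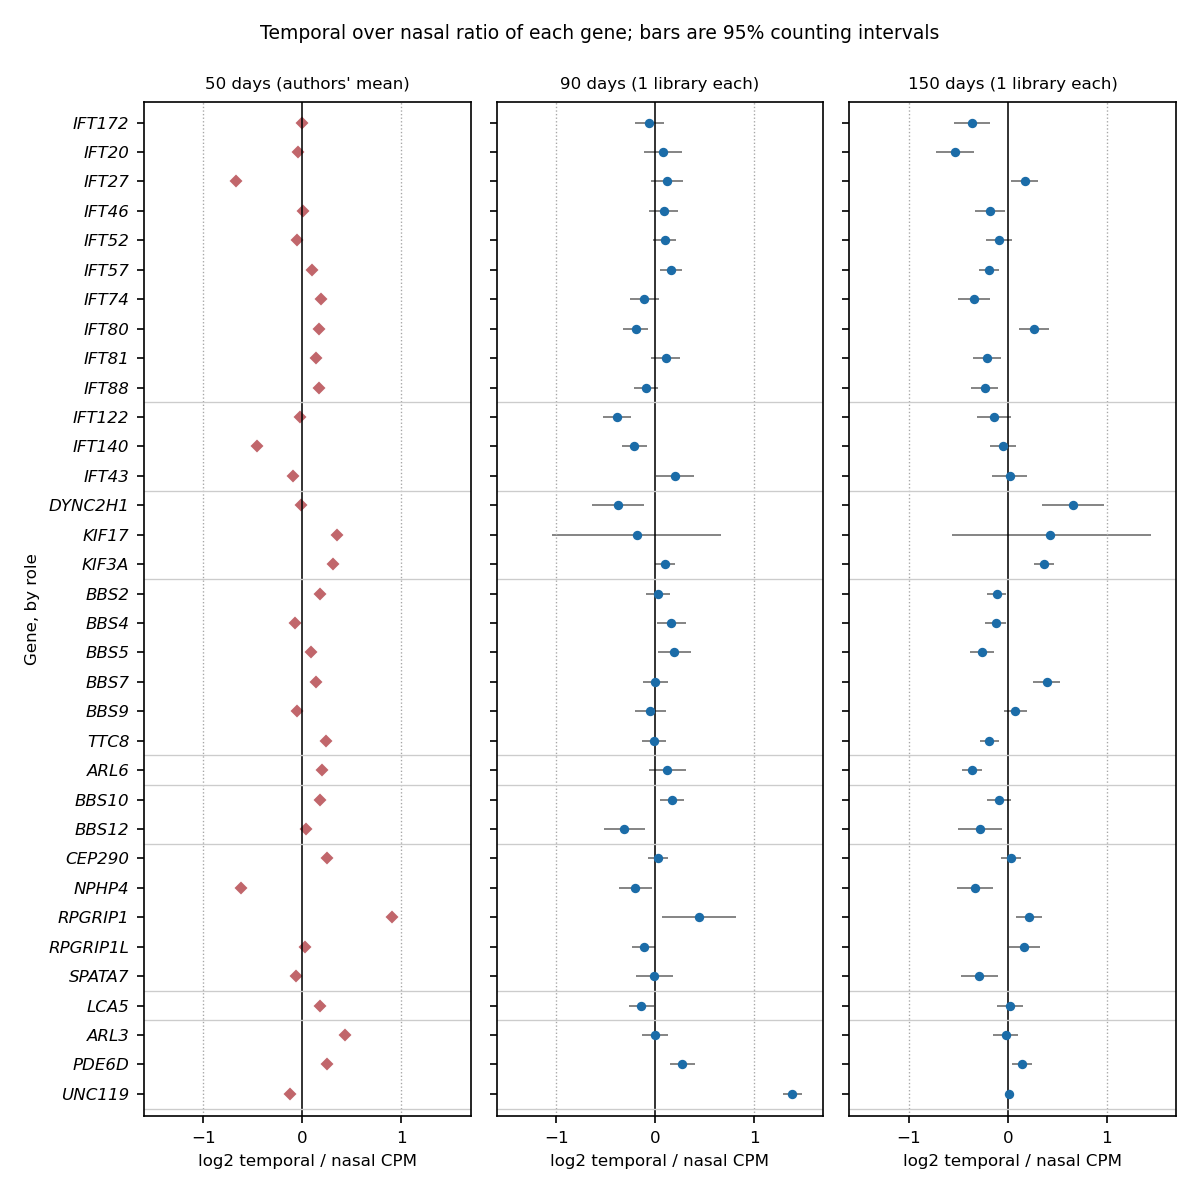
log2 temporal over nasal CPM of 34 genes at 50, 90 and 150 days, with bars for the 95% counting interval at the later ages and dotted lines at a 2-fold difference. UNC119 at 90 days is the one point beyond a dotted line.

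UNC119 binds the myristoylated tail of proteins such as the transducin alpha subunit and carries them to the outer segment. Its level was 22.4, 152 and 843 CPM at 50, 90 and 150 days in temporal retina, against 24.3, 58.1 and 838 CPM in nasal retina. The regions were thus apart only at the middle age: the temporal over nasal ratio was 0.920 at 50 days, 2.61 (2.45 to 2.80) at 90 days and 1.01 (0.985 to 1.03) at 150 days. Photoreceptor markers differed between the regions at the same age, and the cone markers at the other ages too. At 90 days, 8 of 9 measured cone markers were higher in temporal retina and the cone list summed to 204 CPM, against 142 CPM in nasal retina. Of the measured rod markers, 6 of 7 were higher in temporal retina, with sums of 227 CPM in temporal and 210 CPM in nasal retina. The general photoreceptor list summed to 1201 CPM in temporal and 1081 CPM in nasal retina, with 6 of 8 higher. Higher in temporal retina were also 6 of 6 measured cone markers at 50 days and 10 of 10 at 150 days. At 150 days the cone list summed to 2140 CPM in temporal and 1474 CPM in nasal retina, while UNC119 was within counting error. Of the rod markers 8 of 10, and of the general list 4 of 9, were higher at 150 days. Ganglion cell markers also differed at 90 days, with 8 of 9 higher and sums of 3974 and 2947 CPM. The part of these lists in the difference of UNC119 was not tested.

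PDE6D, the carrier of prenylated proteins, and ARL3, the small GTPase that unloads both carriers inside the cilium, showed smaller differences. PDE6D stood at 24.9, 54.4 and 86.0 CPM at the 3 ages in temporal retina, against 21.0, 45.0 and 77.7 CPM in nasal retina. It was higher in temporal retina at every age, by 1.18-fold at 50 days, 1.21-fold (1.11 to 1.32) at 90 days and 1.11-fold (1.03 to 1.19) at 150 days. ARL3 stood at 41.9, 45.1 and 52.4 CPM in temporal retina, against 31.1, 45.1 and 53.2 CPM in nasal retina. Its ratio was 1.35 at 50 days, 1.00 (0.913 to 1.10) at 90 days and 0.986 (0.903 to 1.08) at 150 days, so the later libraries did not differ beyond counting error.

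Among the 10 IFT-B genes, 6 were higher in temporal retina at 50 and at 90 days, and 2 at 150 days. The median log2 ratio of this complex was 0.05, 0.08 and -0.20 at the 3 ages. IFT20, which also acts at the Golgi where cargo is loaded, had the lowest ratio of all the genes at 150 days. Its level was 20.5, 23.1 and 19.5 CPM in temporal retina, against 21.1, 21.9 and 28.2 CPM in nasal retina, and the ratio at 150 days was 0.691 (0.604 to 0.791). IFT172, the largest subunit of the complex, stood at 67.7, 36.7 and 23.1 CPM in temporal retina, against 68.0, 38.1 and 29.8 CPM in nasal retina. Only at 150 days did its counting interval leave 1, with a ratio of 0.777 (0.684 to 0.881). IFT74, which pairs with IFT81 to bind tubulin, stood at 86.4, 37.1 and 29.6 CPM in temporal retina, against 75.9, 39.9 and 37.4 CPM in nasal retina. Its ratio was 1.14 at 50 days, 0.928 (0.840 to 1.03) at 90 days and 0.790 (0.706 to 0.884) at 150 days.

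IFT27, a Rab-like GTPase of the complex, differed most between regions at 50 days. Its level was 13.9, 32.1 and 46.4 CPM in temporal retina, against 22.2, 29.6 and 41.3 CPM in nasal retina, a ratio of 0.627 at 50 days, 1.08 (0.969 to 1.21) at 90 days and 1.13 (1.02 to 1.24) at 150 days. IFT57 and IFT80 changed sides between 90 and 150 days. IFT57 stood at 53.5, 67.8 and 76.7 CPM in temporal retina, against 50.0, 60.5 and 87.7 CPM in nasal retina. Its ratio was 1.12 (1.04 to 1.21) at 90 days and 0.875 (0.815 to 0.939) at 150 days. IFT80 went the other way. It stood at 173, 46.8 and 41.7 CPM in temporal retina, against 154, 53.6 and 34.7 CPM in nasal retina, with a ratio of 0.874 (0.801 to 0.954) at 90 days and 1.20 (1.08 to 1.33) at 150 days.

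In the other IFT-B genes the counting intervals held 1 at 90 days. IFT88, whose loss stops cilia from forming, stood at 138, 48.9 and 44.3 CPM in temporal retina, against 123, 52.2 and 52.1 CPM in nasal retina. IFT81 stood at 82.3, 38.6 and 38.8 CPM in temporal retina, against 74.9, 35.8 and 44.9 CPM in nasal retina. Both had counting intervals below 1 at 150 days, 0.775 to 0.933 for IFT88 and 0.782 to 0.954 for IFT81. The core subunit IFT52 stood at 50.0, 66.1 and 46.0 CPM in temporal retina, against 51.9, 61.8 and 48.8 CPM in nasal retina, with an interval that held 1 at both later ages. IFT46 stood at 29.2, 36.9 and 34.9 CPM in temporal retina, against 29.1, 34.7 and 39.6 CPM in nasal retina. Its ratio was 1.06 (0.957 to 1.18) at 90 days and 0.881 (0.793 to 0.979) at 150 days.

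All 3 IFT-A genes of the set were lower in temporal retina at 50 days, and 2 of 3 at each later age. Other genes listed with IFT-A lay outside the set. Their ratios at 50 days were 1.13 for TTC21B, 0.999 for WDR19, 0.994 for WDR35 and 0.871 for TULP3. IFT122 had the lowest ratio of all the genes in the set at 90 days. It stood at 41.5, 35.7 and 27.7 CPM in temporal retina, against 42.1, 46.5 and 30.5 CPM in nasal retina, a ratio of 0.768 (0.697 to 0.847) at 90 days and 0.909 (0.807 to 1.02) at 150 days. IFT140, mutated in isolated and syndromic retinal dystrophy, stood at 30.6, 46.4 and 46.4 CPM in temporal retina, against 41.97, 53.6 and 48.0 CPM in nasal retina. Its ratios of 0.729 at 50 days, 0.866 (0.793 to 0.945) at 90 days and 0.968 (0.881 to 1.06) at 150 days were below 1 throughout, and the last interval held 1. IFT43 stood at 11.4, 22.9 and 27.3 CPM in temporal retina, against 12.2, 19.9 and 26.9 CPM in nasal retina, with 1.15 (1.01 to 1.32) at 90 days.

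The motors were KIF3A, a motor subunit of heterotrimeric kinesin-2, KIF17, the homodimeric kinesin-2, and DYNC2H1, the heavy chain of dynein-2. KIF3A stood at 215, 77.1 and 94.4 CPM in temporal retina, against 173, 71.8 and 73.3 CPM in nasal retina. It was higher in temporal retina at every age, by 1.24-fold at 50 days, 1.07-fold (0.999 to 1.15) at 90 days and 1.29-fold (1.20 to 1.38) at 150 days. DYNC2H1 stood at 152, 10.7 and 11.7 CPM in temporal retina, against 154, 13.8 and 7.38 CPM in nasal retina. It was the gene whose ratio moved most between the later ages other than UNC119, with 0.772 (0.643 to 0.924) at 90 days and 1.58 (1.27 to 1.96) at 150 days. Its other ID, which was not kept, stood at 96.9, 8.90 and 7.73 CPM in temporal retina, against 92.1, 10.7 and 6.93 CPM in nasal retina. There the ratio was 0.834 (0.681 to 1.02) at 90 days and 1.11 (0.876 to 1.42) at 150 days, both within counting error, so the regional difference of DYNC2H1 depends on the ID. KIF17 was near the floor, with 23 and 21 reads in temporal retina at 90 and 150 days, against 28 and 17 reads in nasal retina, too few to show a regional difference.

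The 6 BBSome genes had median log2 ratios of 0.11, 0.02 and -0.12 at the 3 ages. BBS7 stood at 126, 47.0 and 55.7 CPM in temporal retina, against 115, 46.9 and 42.5 CPM in nasal retina, and had the only BBSome interval above 1 at 150 days, 1.31 (1.20 to 1.44). BBS4 and BBS5 changed sides. BBS4 stood at 48.5, 40.1 and 71.8 CPM in temporal retina, against 51.0, 35.8 and 78.2 CPM in nasal retina, with 1.12 (1.01 to 1.24) at 90 days and 0.918 (0.852 to 0.988) at 150 days. BBS5 stood at 29.4, 31.2 and 53.2 CPM in temporal retina, against 27.6, 27.2 and 63.9 CPM in nasal retina, with 1.15 (1.02 to 1.29) at 90 days and 0.832 (0.765 to 0.905) at 150 days. Both were thus ahead in temporal retina at 90 days and ahead in nasal retina at 150 days.

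BBS2, BBS9 and TTC8 complete the complex as measured here. BBS2 stood at 84.2, 55.7 and 86.6 CPM in temporal retina, against 74.6, 54.6 and 93.4 CPM in nasal retina. TTC8, also known as BBS8, stood at 58.0, 55.0 and 85.1 CPM in temporal retina, against 49.0, 55.3 and 96.9 CPM in nasal retina. Each had an interval holding 1 at 90 days and lying below 1 at 150 days. BBS9 stood at 75.0, 33.8 and 63.4 CPM in temporal retina, against 77.6, 34.9 and 60.2 CPM in nasal retina, with an interval holding 1 at both ages.

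ARL6, the small GTPase that recruits the BBSome to membranes, stood at 34.7, 24.9 and 69.6 CPM in temporal retina, against 30.2, 22.8 and 89.4 CPM in nasal retina. The regions were alike within counting error at 90 days, 1.09 (0.960 to 1.24), and temporal retina was lower at 150 days, 0.778 (0.724 to 0.837). BBS10 and BBS12, chaperonin-like proteins needed to assemble the BBSome, differed from each other. BBS10 stood at 91.2, 59.7 and 60.1 CPM in temporal retina, against 80.5, 53.1 and 63.9 CPM in nasal retina, with 1.12 (1.04 to 1.22) at 90 days. BBS12 stood at 30.9, 17.5 and 16.0 CPM in temporal retina, against 30.1, 21.7 and 19.4 CPM in nasal retina, with 0.807 (0.700 to 0.930) at 90 days and 0.824 (0.706 to 0.962) at 150 days.

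Among the 7 transition zone genes, RPGRIP1 and NPHP4 lay at opposite ends, each on the same side at all ages. RPGRIP1 anchors the gate proteins in the connecting cilium of photoreceptors. Its level was 20.4, 7.03 and 52.6 CPM in temporal retina, against 10.9, 5.17 and 45.3 CPM in nasal retina. It was higher in temporal retina by 1.88-fold at 50 days, 1.36-fold (1.05 to 1.76) at 90 days, on 139 temporal and 110 nasal reads, and 1.16-fold (1.06 to 1.27) at 150 days. NPHP4, of the nephronophthisis module of the gate, stood at 15.1, 28.0 and 22.9 CPM in temporal retina, against 23.2, 32.1 and 28.7 CPM in nasal retina. Its ratio was 0.652 at 50 days, 0.872 (0.778 to 0.977) at 90 days and 0.796 (0.700 to 0.904) at 150 days.

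CEP290, a frequent cause of Leber congenital amaurosis, bridges microtubules and membrane in the gate. It stood at 276, 78.5 and 85.7 CPM in temporal retina, against 232, 77.1 and 83.9 CPM in nasal retina. The regions were 1.19-fold apart at 50 days and within counting error later, 1.02 (0.950 to 1.09) at 90 days and 1.02 (0.953 to 1.10) at 150 days. SPATA7, mutated in Leber congenital amaurosis and juvenile retinitis pigmentosa, stood at 24.6, 23.3 and 22.6 CPM in temporal retina, against 25.7, 23.4 and 27.6 CPM in nasal retina. Only its value at 150 days, 0.819 (0.719 to 0.932), lay beyond counting error. LCA5, which encodes lebercilin of the ciliary axoneme, stood at 106, 46.6 and 50.6 CPM in temporal retina, against 93.9, 51.3 and 49.7 CPM in nasal retina, with 0.908 (0.831 to 0.993) at 90 days.

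RPGRIP1L, a paralog of RPGRIP1 found at the gate of most cilia, stood at 132, 56.9 and 37.6 CPM in temporal retina, against 130.3, 61.5 and 33.4 CPM in nasal retina. Its ratio was 0.925 (0.854 to 1.00) at 90 days and 1.12 (1.01 to 1.25) at 150 days.

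Counting intervals of the temporal over nasal ratio lay above 1 for 8 of 35 genes at 90 days (29.3% of all genes) and for 8 at 150 days (27.0%). They lay below 1 for 7 at 90 days (22.5%) and for 17 at 150 days (34.7%). PDE6D and RPGRIP1 were the 2 genes above 1 at both ages (12.0%), and BBS12 and NPHP4 the 2 below 1 at both (9.70%). BBS4, BBS5 and IFT57 were above 1 at 90 days and below 1 at 150 days, 3 genes (9.16%). IFT80 and the kept ID of DYNC2H1 did the opposite, 2 genes (3.91%).

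The 4 libraries of 90 and 150 days allowed one test of region, which takes the ages as replicates of the regional difference. limma with age as a block called 102 genes higher in temporal retina (0.722% of the 14131 tested) and 61 lower (0.432%) at an adjusted p under 0.05. Of the 36 ciliary genes, 0 passed and 1 had an unadjusted p under 0.05, where 12.0% of all genes did. That gene was UNC119, with a mean log2 difference of 0.69 (SE 0.22) and a limma adjusted p of 0.139, a difference carried by 90 days, since the regions were within counting error at 150 days. On the recovered reads, 0 of the 36 passed by edgeR or DESeq2. An unadjusted p under 0.05 was reached by 0 with edgeR and TMM scaling, by 0 with DESeq2, and by 1 with edgeR and RLE scaling, again UNC119. edgeR called 0 genes in all with TMM and 5 with RLE. On simulated counts, limma called 22% of genes changed by log2 0.5, edgeR 14% and DESeq2 10%. Of genes changed by log2 1, limma called 92%. Differences near log2 0.5 would thus mostly be missed, so 0 calls do not show that the regions are alike.

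From 90 to 150 days, 3 of the genes rose in both regions, UNC119, RPGRIP1 and ARL6, and none fell. That is 3 of 35 higher (6.77% of all genes) and 0 lower (6.09%). The median log2 change of the ciliary genes was 0.12 in temporal and 0.21 in nasal retina, against -0.04 and 0.02 over all genes. By any amount, 18 were higher at 150 days in both regions (38.8%) and 9 lower (43.1%). UNC119 rose 5.55-fold (5.34 to 5.77) in temporal and 14.4-fold (13.6 to 15.3) in nasal retina. RPGRIP1 rose 7.49-fold (6.26 to 9.01) in temporal and 8.76-fold (7.18 to 10.8) in nasal retina. ARL6 rose 2.80-fold (2.52 to 3.11) in temporal and 3.92-fold (3.54 to 4.34) in nasal retina.

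At a lower threshold of 1.5-fold, 10 of 35 genes were higher at 150 days in both regions (12.9% of all genes) and 1 was lower, RPGRIP1L (12.8%). The 10 held 5 of the 6 BBSome genes (BBS2, BBS4, BBS5, BBS9 and TTC8) and, beside the 3 named above, PDE6D. The BBSome had a median log2 change of 0.69 in temporal and 0.78 in nasal retina. Its exception was BBS7, at 1.18-fold (1.08 to 1.30) in temporal and 0.905-fold (0.825 to 0.993) in nasal retina. The IFT-B complex did not share this difference: none of its 10 genes reached 1.5-fold in both regions, and its medians were -0.15 in temporal and 0.09 in nasal retina. RPGRIP1L stood at 0.660-fold (0.600 to 0.727) of its 90-day level in temporal retina and at 0.544-fold (0.495 to 0.597) in nasal retina.

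Photoreceptor and dividing-cell markers moved over the same interval. The general photoreceptor list summed to 1201 CPM at 90 days and 3399 CPM at 150 days in temporal retina, against 1081 and 4177 CPM in nasal retina. The 9 cell cycle markers summed to 1323 and 138 CPM in temporal retina, against 1803 and 220 CPM in nasal retina. Their part in the changes of UNC119, RPGRIP1, ARL6 and the BBSome genes was not tested.

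**Figure D3:**
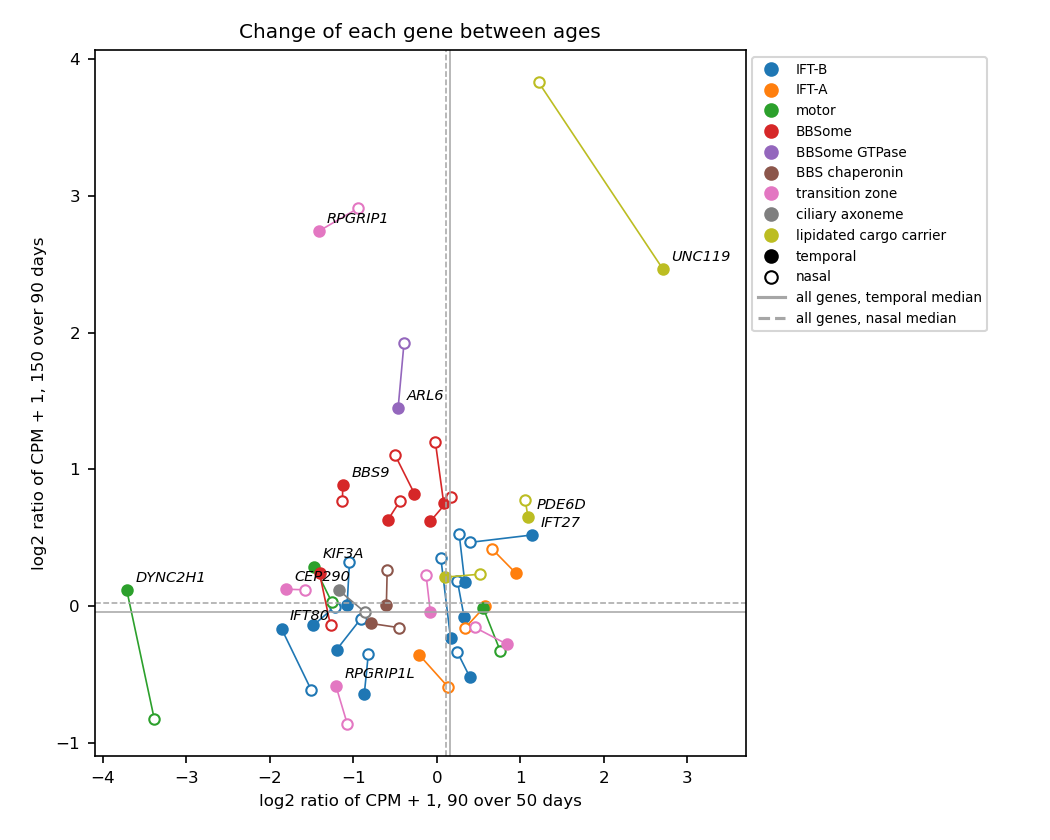
log2 change of CPM + 1 of 34 genes between 50 and 90 days (horizontal) and between 90 and 150 days (vertical), with filled circles for temporal and open circles for nasal retina joined by a line, and grey lines for the median of all genes. UNC119, RPGRIP1 and ARL6 lie at the top, and DYNC2H1 lies farthest to the left in both regions.

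Between 50 and 90 days, 11 of 35 genes fell by at least 2-fold in both regions (18.0% of all genes) and 2 rose (26.7%). The median log2 change was -0.59 in temporal and -0.45 in nasal retina, against 0.16 and 0.12 over all genes. By any amount, 21 were lower at 90 days in both regions (43.4%) and 11 higher (50.6%). Among the 11 were BBS7, BBS9, IFT80, IFT81, IFT88, KIF3A, DYNC2H1, CEP290 and RPGRIP1L, which belong to the BBSome, IFT-B, the motors and the transition zone. DYNC2H1 was farthest, 14.2-fold higher at 50 than at 90 days in temporal and 11.1-fold in nasal retina. IFT80 was 3.68-fold higher at 50 days in temporal and 2.87-fold in nasal retina, and CEP290 was 3.51-fold and 3.01-fold higher. The 2 that rose were UNC119, 6.79-fold in temporal and 2.39-fold in nasal retina, and PDE6D, 2.18-fold in temporal and 2.14-fold in nasal retina.

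The reference genes of every cell did not stay level over this interval. The housekeeping list had a median log2 change of 1.44 in temporal and 1.30 in nasal retina from 50 to 90 days, and EEF1A1, a translation factor, stood at 54.2 and 1708 CPM in temporal retina, against 67.4 and 1536 CPM in nasal retina. The columns were then rescaled to the median of that list, a setting chosen after seeing the data. The log2 factors divided out were -1.25 in temporal and -0.97 in nasal retina at 50 days, and 0.60 and 0.52 at 90 days. This lowers every gene at 90 against 50 days, and no share of all genes was computed on that scale. On that scale 29 of the ciliary genes fell at least 2-fold in both regions and 0 rose as much, counts that are not read as particular to these genes. Of the 11 that were higher at 90 days in both regions by any amount, 10 were then lower in both, PDE6D among them, and UNC119 was higher in temporal retina (log2 0.90) and lower in nasal retina (log2 -0.22). The 21 that were lower in both regions were lower on either scale. Among the 35 genes of at least 5 CPM, each higher level at 90 than at 50 days therefore depends on the scale, save that of UNC119 in temporal retina. Median-ratio scaling over 12024 genes moved the columns less. Its log2 factors were -0.08 in temporal and -0.06 in nasal retina at 50 days, and 0.07 and 0.05 at 90 days. Over all comparisons, 12 of 279 single-gene values turned sign under it. Which scale is nearer to the tissue was not tested. From 90 to 150 days the housekeeping rescaling left UNC119, RPGRIP1 and ARL6 at least 2-fold higher in both regions. How much of the changes lies in the 50-day columns was not tested.

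**Figure D4:**
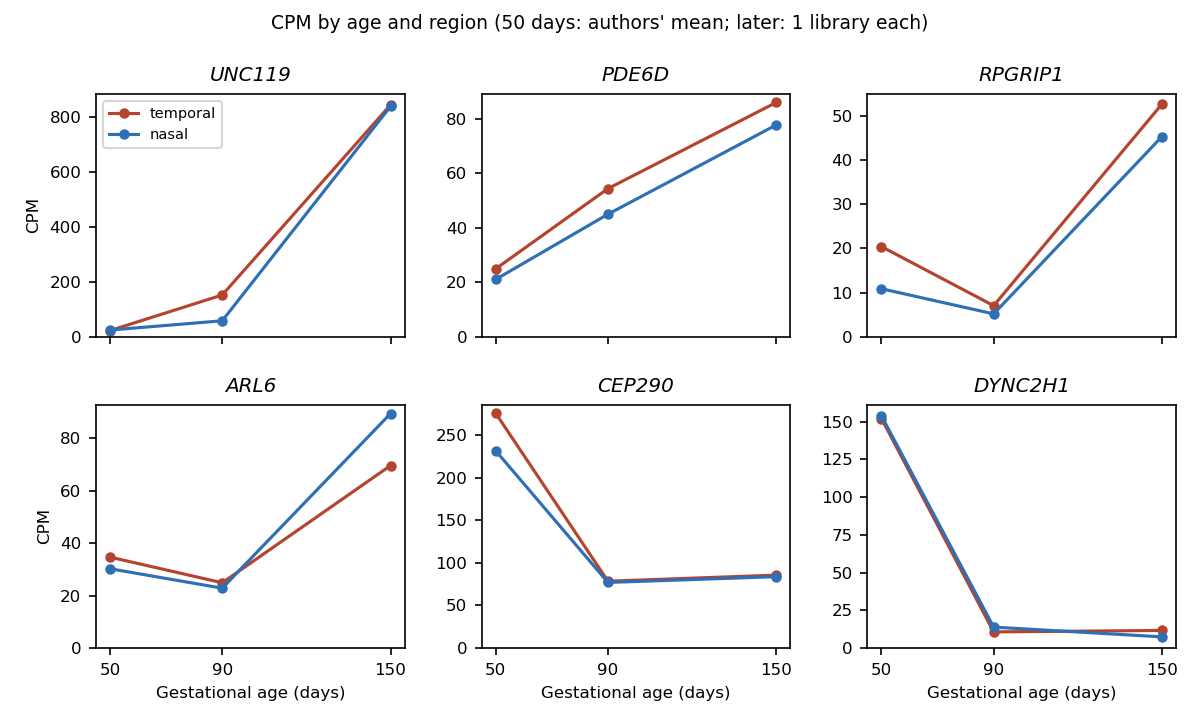
CPM of 6 genes at 50, 90 and 150 days in temporal and nasal retina, each on its own linear axis starting at 0. UNC119 lies higher in temporal retina at 90 days alone, RPGRIP1 has its lowest level at 90 days in both regions, and CEP290 and DYNC2H1 have their highest at 50 days.

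Between 50 and 150 days, UNC119, PDE6D, RPGRIP1 and IFT43 were the 4 genes that rose in both regions (30.5% of all genes), and 10 fell (22.2%). On the housekeeping scale UNC119 alone rose in both regions, with log2 changes of 3.34 in temporal and 3.62 in nasal retina, and 23 fell. No share of all genes was computed on this scale, which lowers every gene at 150 against 50 days. IFT43 was then lower at 150 days in both regions, and PDE6D and RPGRIP1 were lower in temporal retina, at log2 -0.09 and -0.50. Over all ages, 18 of the 35 genes were highest at 50 days (39.4% of all genes), 3 at 90 days (23.7%) and 14 at 150 days (36.8%), by the mean of the regions. Highest at 50 days were 5 of 7 gate genes, 5 of 10 IFT-B genes and 2 of 6 BBSome genes. Highest at 150 days were 1 of 7 gate genes, 4 of 10 IFT-B genes, 4 of 6 BBSome genes and 3 of 3 cargo carriers. On the housekeeping scale 33 were highest at 50 days and 2 at 150 days, PDE6D and UNC119 (shares of all genes not computed). None of the BBSome genes thus kept its place at 150 days. IFT140, IFT52 and NPHP4 were highest at 90 days as deposited, and at 50 days on the housekeeping scale. With the 50-day columns left out, 12 genes were higher at 90 days and 23 at 150 days.

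A further 45 cilium genes outside the set, of the same complexes and the gate, were measured for comparison. Between regions 0 of them passed 2-fold at any age, where 0.197% to 1.61% of all genes did on either side. From 90 to 150 days 1 of 44 rose at least 2-fold in both regions (6.77% of all genes) and 1 fell (6.09%). Between 50 and 90 days 6 of 45 rose (26.7%) and 14 fell (18.0%), on the deposited scale, on which the housekeeping genes also rose. Their median log2 temporal over nasal ratios were -0.01, -0.06 and -0.13 at the 3 ages. WDR34, an intermediate chain of dynein-2, differed most at 50 days, at 9.88 CPM in temporal and 19.0 CPM in nasal retina. KIFAP3, the subunit that pairs with KIF3A in kinesin-2, stood at 202 CPM in temporal and 162 CPM in nasal retina at 90 days, and at 213 and 173 CPM at 150 days. KIF3C, another kinesin-2 motor, stood at 482 CPM in temporal and 342 CPM in nasal retina at 150 days. At 50 days both were lower in temporal retina, KIFAP3 at 201 against 217 CPM and KIF3C at 169 against 192 CPM. KIF3B, a further kinesin-2 motor, had temporal over nasal ratios of 1.03, 1.05 and 1.13 at the 3 ages. At 150 days 13 of the 45 were higher in temporal retina. Lowest was TMEM216 of the gate, at 6.86 CPM in temporal and 11.5 CPM in nasal retina.

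Genes of the photoreceptor's own ciliary structures were listed separately. All 12 rose at least 2-fold from 90 to 150 days in both regions, where 6.77% of all genes did. Among them were RP1 of the axoneme and CDHR1 of the disc margin. The median log2 change of the 12 was 2.87 in temporal and 2.57 in nasal retina. RP1 stood at 67.8, 179 and 2302 CPM in temporal retina, against 22.4, 123 and 2331 CPM in nasal retina. CDHR1 stood at 121, 273 and 856 CPM in temporal retina, against 91.4, 223 and 953 CPM in nasal retina. In temporal retina UNC119 and RPGRIP1, with log2 changes of 2.47 and 2.74, lay closest to that median. In nasal retina RPGRIP1 (2.91) and ARL6 (1.92) lay closest, and UNC119 (3.83) lay farther above it.

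Neighbouring genes limit some of these values. In the RefSeq annotation of the T2T-MMU8v2.0 assembly, 8 of the 36 genes overlap another coding gene, among them ARL6, CEP290, IFT74, IFT88, IFT140, IFT172 and NPHP4. The library kit keeps strand, but no source used here says whether the counting used it, so their reads may include reads of the neighbour. UNC119, RPGRIP1, PDE6D and DYNC2H1 have no such overlap there.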

How the data were processed

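RNA of retinal punches was made into ribosomal-RNA-depleted stranded libraries, although the labels give polyA RNA as the molecule. Per the study's methods, the authors used Bowtie2 2.2.2, Tophat 2.0.11 and Cufflinks 2.2.1 with genome Mmul_1 and its Ensembl annotation, and the submitters' processing notes name edgeR. No source used here names the read counter.

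For 90 and 150 days the authors deposited CPM per library. All values were whole multiples of 1 read within 0.01 read (100% of values), and the reads were recovered from these steps. For 50 days the deposited values are a signal on the CPM scale, the authors' mean of 3 samples, which sum to 1061800 in temporal and 1023558 in nasal retina. Columns of samples left out numbered 0. Names came from the table and, for 700 genes without one, from a gene table. All 36 symbols were found once in the RefSeq table, which was used for names and neighbours only.

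Values were compared on log2(CPM + 1). Region was tested with limma 3.58.1 (trend) in R 4.3.3, with Benjamini-Hochberg adjustment over genes of at least 1 CPM mean, and again with edgeR 4.0.16 and DESeq2 1.42.0 on the recovered reads. The scripts were tested on simulated data. Alternatives were other pseudocounts (0.5 and 5), thresholds, filters and scalings, and no age block. Named were the genes past 2-fold, the 4 highest and 4 lowest ratios at each age, the extremes of each role group at 90 days, the retinal disease genes, and the motors and carriers. The genes and lists were chosen with earlier results of these data known. Nothing says whether the 3 samples at 50 days came from separate animals. The values of 2 of the 36 genes are not reported here singly, though both enter the counts and medians. No sequence was used, and a search for promoter motifs was not run.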

Additional observations from a re-analysis of the deposited data

Results flagged for a closer look

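For 5 genes the temporal over nasal difference turned its sign between 90 and 150 days, with counting intervals on opposite sides of 1. These have 1 library per region and age, and the change of the difference was not tested. The log2 temporal over nasal ratio at 150 days minus that at 90 days was -0.28 for BBS4, -0.45 for BBS5 and -0.35 for IFT57, which were higher in temporal retina at 90 days and lower at 150 days. It was 0.45 for IFT80 and 0.94 for DYNC2H1, which were lower in temporal retina at 90 days and higher at 150 days. The second gene ID of DYNC2H1 had intervals that held 1 at both ages.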

How the results depend on the processing

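Of the alternative values of the group results, 115 stayed within their tolerance and 22 moved, and of those of single genes and role groups 1417 stayed and 307 moved. Values past 2-fold turned sign in 4 cases, all under housekeeping scaling. Counting values of any size, 54 of 279 turned sign under housekeeping scaling, 17 under scaling to an equal sum, 12 under median-ratio scaling and 2 with levels summed over gene IDs. Genes at least 2-fold higher at 90 than at 50 days in both regions numbered 1 with a pseudocount of 5 and 1 with median-ratio scaling. They numbered 0 with housekeeping scaling, which was chosen after seeing the data. No share of all genes was computed under housekeeping scaling, which lowers every gene at 90 and 150 days against 50 days. Housekeeping scaling also gave 29 genes at least 2-fold lower at 90 days in both regions. It gave 1 gene 2-fold higher in temporal retina at 50 days. Median log2 temporal over nasal ratios under this scaling were 0.37 at 50 days and -0.24 at 150 days. Its log2 factors were -1.25 in temporal and -0.97 in nasal retina at 50 days, and 0.62 and 0.48 at 150 days. This raises the ratio of each measured gene at 50 days and lowers it at 150 days, and the medians over all genes were not computed. Housekeeping scaling put 33, 0 and 2 genes highest at 50, 90 and 150 days. It turned the log2 change from 50 to 90 days to -0.63 for IFT27 in temporal retina, to -0.71 for PDE6D in temporal and -0.38 in nasal retina, and to -0.22 for UNC119 in nasal retina. At 1.5-fold, 1 gene was higher and 2 lower in temporal retina at 50 days, 1 was higher at 150 days, and from 90 to 150 days 10 rose and 1 fell. Leaving out 50 days, which was also chosen after seeing the data, put 12 genes highest at 90 days and 23 at 150 days. The region test called 163 genes, against 0 by edgeR with TMM (1335 at an unadjusted p under 0.05), 5 by edgeR with RLE, 85 by DESeq2, 3 with no filter on low values and 0 with no age block (33 unadjusted). No ciliary gene was called by any of these. No paired analysis was possible because replicate numbers cannot enter a fit: the 50-day columns are means, and each later age has 1 library per region. The age block of the region test does set temporal against nasal retina within each age. Leaving out a replicate was not possible for the same reason.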

Other observations

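Among 10 listed genes of motile cilia, which the retina is not known to build, some were measured well above zero at 50 days. The list did not move as one. By the mean of the regions, 5 of the 10 peaked at the first age, 4 at the last and 1 at the middle age. Its sum at 50 days was 191.1 CPM in temporal and 190.6 CPM in nasal retina, most of it from DNAH5 and HYDIN. DNAH5, an axonemal dynein heavy chain, stood at 120.3, 9.46 and 1.03 CPM at 50, 90 and 150 days in temporal retina, against 117, 14.8 and 2.54 CPM in nasal retina. HYDIN, of the central pair apparatus, stood at 42.03, 2.22 and 2.50 CPM in temporal retina, against 44.1, 3.86 and 2.25 CPM in nasal retina. DYNC2H1 was likewise highest at 50 days, as were 21 of the 45 further cilium genes. FOXJ1, the transcription factor that switches on motile cilium genes, was between 0.0286 and 2.23 CPM in each column and was lowest at 50 days. PCDH15, a large adhesion protein of the photoreceptor cilium, was high at 50 and 150 days with a low between. PCDH15 stood at 59.2, 4.05 and 91.3 CPM in temporal retina, against 68.5, 3.81 and 66.1 CPM in nasal retina.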
